A study of Mus musculus with 12 samples.

Results

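The 36 genes described here are interferon-response genes, a list chosen by name with earlier results of these data known. It holds IFIT and OAS family members, Mx genes, Isg15 and its partners, and transcription factors of the pathway. It also holds sensors of viral nucleic acid, immunity GTPases, and antigen-processing genes. All 36 are on the array, among 30119 genes and transcripts, and 34 of them were bright enough to be tested, among 18559. Each of these 34 was well above background in all 12 samples. Oas3 was above background in 0 of 12 samples and Mx1 in 1 (C1), so neither was tested.

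The genes were measured in ovaries of 12 C57BL/6J females, an inbred mouse strain, at 2 months of age. Controls (C1 to C4) ate a normal diet. Early-life mice (E1 to E4) ate a diet deficient in vitamin D in early life only, and peripubertal mice (P1 to P4) ate it in the peripubertal stage only. The design describes the 4 females of a group as biological replicates, and whole minced ovaries were used, so fewer cells of a type and less RNA per cell cannot be told apart.

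Interferons are secreted proteins that warn cells of infection. Type I interferons bind a receptor that activates a complex that holds Stat2 and Irf9, which enters the nucleus and turns on genes that carry the interferon-stimulated response element; interferon gamma acts mainly through the gamma-activated site. In uninfected tissue these genes are kept at a low tonic level, and immune cells such as macrophages are among the cells that express them.

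The binding element can be seen in the members' promoters, which is why these stretches are shown. RefSeq promoters of build GRCm38, from 250 bases before to 50 after the start of a gene, had an entry for 29 of the 36 genes; Mx1, Mx2, Oas2, Dhx58, Usp18, Zbp1 and Parp14 had none. The core of the response element is GAAA followed by any 2 bases and a further GAAA, read on both strands. It occurred in 16 of these 29 genes, in 16 of their 33 promoters and in 3.44% of all 32851 promoters. The core of the gamma-activated site, TTCNNNGAA, reads the same on both strands. It occurred in 9 of 29 genes, in 9 of their 33 promoters and in 8.30% of all promoters. Matches of the response element may overlap each other. The stretches below lie upstream of the start, read 5′ to 3′ on the gene's strand, with the matches in capitals. Isg15 was added after its values were seen.
Ifit3: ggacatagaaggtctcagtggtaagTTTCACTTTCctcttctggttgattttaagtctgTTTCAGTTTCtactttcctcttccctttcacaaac
Isg15: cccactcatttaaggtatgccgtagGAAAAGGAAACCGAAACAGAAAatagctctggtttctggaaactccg
Gbp3: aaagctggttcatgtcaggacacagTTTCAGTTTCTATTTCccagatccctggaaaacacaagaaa
Irgm1: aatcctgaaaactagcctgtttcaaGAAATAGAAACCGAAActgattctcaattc
Rsad2: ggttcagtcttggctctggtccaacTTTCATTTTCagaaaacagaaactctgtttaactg
Stat2: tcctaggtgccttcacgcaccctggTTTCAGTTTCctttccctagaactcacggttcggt
They span chr19:34583348-34583441 (plus strand) for Ifit3, chr4:156200850-156200921 (minus) for Isg15, chr3:142559974-142560039 (plus) for Gbp3, chr11:48871421-48871475 (minus) for Irgm1, chr12:26456538-26456597 (minus) for Rsad2 and chr10:128270251-128270310 (plus) for Stat2. Ifit3 holds 2 separate matches, at -156 to -147 and at -122 to -113 from the start. In Isg15, 3 matches overlap, and in Gbp3 and Irgm1 2 do. Among the other genes given sample by sample below, Ddx58 has a match just after its start and Ifitm3 has 2, and in Ifit2, Irf9, Ifi35, Psmb9 and Tap1 these letters do not occur in the window. A match is a description of sequence and not evidence of binding.

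The samples were hybridised to 6 arrays of 2 colours. On an array, an odd-numbered sample in Cy3 was paired with the even-numbered sample of its own group in Cy5. The peripubertal arrays had a slide of their own, so that diet and slide cannot be told apart for this group, whereas early life and control shared a slide. Median signals were 6.85 to 9.49 times background, and precision is limited by the number of arrays. Markers of granulosa cells, oocytes and theca or luteal cells, the cells of the ovary, were above background. Samples carry the group names of their scanner files. The deposited value table names them otherwise: its 4 control columns matched the early-life arrays and its 4 early-life columns matched the control arrays (correlation across features 0.9998 in each), and its 4 peripubertal columns matched no array (0.874 to 0.897). Which deposit is named correctly is not known. The sign of each early-life difference from control given here is therefore open; with these arrays exchanged, the 4 samples called early life are the controls, and the peripubertal comparisons with control and with early life change places.

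Values are normalised log2 intensities, and differences are log2 differences from limma with their standard errors, adjusted for dye. The test is limma with Benjamini-Hochberg adjustment over all 18559 genes at a threshold of 0.05. Control samples, and likewise early-life and peripubertal samples, serve in 2 comparisons each, so the comparisons are not independent of each other.

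In the arrays labelled early life, most interferon-response genes had their lowest level of the 3 groups. The early-life mean was the lowest of the 3 in 24 of the 34 genes, the control mean in 6 and the peripubertal mean in 4. These counts were not made over all genes. By fitted difference, 54.4% of all genes were lower in early life than in control and 55.0% lower than in peripubertal ovaries. Against peripubertal ovaries, 4 genes fell: Ddx58, Gbp3, Irf9 and Ifit2. They are 11.8% of the 34, where 2.09% of all genes were called lower in this comparison. Of the members 0 were higher, against 0.544% of all genes. The members and all gene lists here were chosen with earlier results of these data known, so shares beside all genes describe them and do not test them. Against control ovaries, 0 members passed, and 0.0162% of all genes were called lower and 0.00539% higher. At an unadjusted p under 0.05, 14 of the 34 were lower than in controls and 0 higher, beside 9.48% and 4.44% of all genes.

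The median difference of the 34 genes was -0.39 between early life and control, beside -0.02 for all genes, and 26 of the 34 were below 0, beside 54.4% of all genes. Between early life and peripubertal it was -0.39, beside -0.03, and 28 of the 34 were below 0, beside 55.0% of all genes. Between peripubertal and control the median was -0.02, beside 0.01, with 17 of 34 below 0, beside 48.1%, and 0 members passed the test, where 0.167% of all genes were called lower and 0.102% higher. In that comparison 1 member, Irgm1, was higher at an unadjusted p under 0.05 and 0 were lower, against 6.50% and 4.87% of all genes. Of the 31 members with 3 or more values in both groups, 10 had every early-life sample under every control sample, which 9.32% of all such genes had, and 0 had every one above, beside 3.26%. Against peripubertal samples 14 of 32 lay under, beside 14.4%, and 0 above, beside 5.68%. Under both other groups lay 8 of 30 members, Ifit2, Ifit3, Mx2, Isg15, Irf9, Ddx58, Ifih1 and Gbp3, and 4.92% of all genes.

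**Figure D1:**
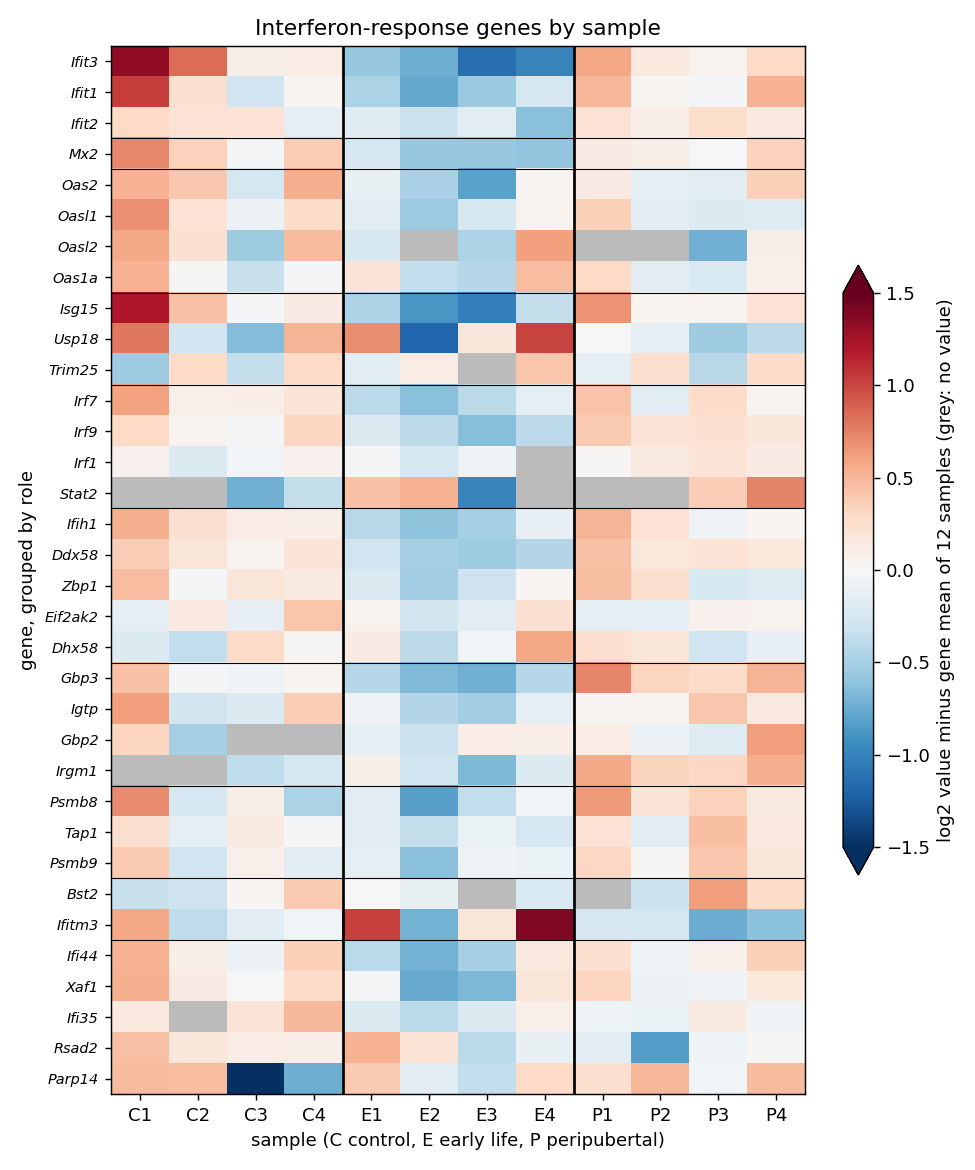
Each row is 1 of the 34 tested genes, grouped by role, and each column 1 sample; colour gives the log2 value minus the gene's mean over the 12 samples, and grey marks no value. The early-life columns are mostly blue, deepest in E2 and E3, while C1 and P1 are the reddest of their groups, and Usp18 and Ifitm3 are red in E1 and E4.

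The IFIT proteins bind foreign RNA and block its translation. All 3 had a lower early-life mean than either other group. Ifit3 (probe at chr19:34663105-34663164, mm9) measured 11.19, 10.70, 9.95 and 9.98 in C1 to C4, 9.30, 9.13, 8.74 and 8.87 in E1 to E4, and 10.45, 10.01, 9.92 and 10.16 in P1 to P4. Every early-life sample lay under the 8 others, and C1 and C2 were the highest of all. The difference was -1.45 ± 0.29 from control, a level 2.72 times lower (limma adjusted p = 0.140), and -1.13 ± 0.29 from peripubertal (adjusted p = 0.0629), so neither passed. Its mean ± SD was 10.46 ± 0.60 (n = 4) in control, 9.01 ± 0.26 (n = 4) in early-life and 10.14 ± 0.23 (n = 4) in peripubertal ovaries. Ifit3 has a close copy in the mouse genome, Ifit3b, and whether the probe tells them apart was not tested.

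Ifit2 (chr19:34650244-34650303, mm9), a member of the same family, fell in early-life against peripubertal ovaries. It measured 8.68, 8.60, 8.61 and 8.25 in controls, 8.21, 8.07, 8.22 and 7.76 in early-life samples, and 8.60, 8.49, 8.65 and 8.53 in peripubertal samples. The early-life values lay under all others, but E3 at 8.22 was close to C4 at 8.25. The difference from peripubertal was -0.50 ± 0.11 (limma adjusted p = 0.0464) and from control -0.47 ± 0.11 (adjusted p = 0.203). Ifit1 differed by -0.77 ± 0.31 from control and by -0.77 ± 0.31 from peripubertal. Its early-life samples lay under every peripubertal sample but not under every control, since C3 at 7.73 was below E4 at 7.76.

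Mx2 (chr16:97782327-97782386, mm9) is a gene of the Mx family of dynamin-like GTPases, and activity of its protein was not measured. It measured 9.54, 9.16, 8.81 and 9.20 in controls, 8.57, 8.25, 8.25 and 8.23 in early-life samples, and 8.95, 8.91, 8.83 and 9.17 in peripubertal samples. E1 stood above the other early-life samples and still under all 8 others. The difference was -0.85 ± 0.18 from control (limma adjusted p = 0.167) and -0.64 ± 0.18 from peripubertal (adjusted p = 0.0868).

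The ISG15 system attaches the ubiquitin-like protein Isg15 to other proteins. Isg15 measured 12.29, 11.52, 11.06 and 11.21 in controls, 10.62, 10.21, 10.05 and 10.73 in early-life samples, and 11.76, 11.11, 11.14 and 11.30 in peripubertal samples. The early-life samples lay under all others, control and peripubertal samples overlapped, and C1 was the highest of all. The difference was -1.12 ± 0.32 from control (limma adjusted p = 0.232) and -0.93 ± 0.32 from peripubertal (adjusted p = 0.133), and the other Isg15 probe gave -0.81 ± 0.24 from control. For its partners the groups overlapped. Usp18, the protease that removes Isg15, measured 10.32, 9.24, 8.88 and 10.04 in controls, 10.23, 8.34, 9.70 and 10.54 in early-life samples, and 9.53, 9.39, 9.0 and 9.14 in peripubertal samples. The lowest and the highest of its 12 values were both early-life samples, and its difference from control was 0.08 ± 0.59. Trim25, a ubiquitin ligase, differed by 0.11 ± 0.13 from control, with 1 early-life sample without a value.

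Some proteins of the OAS family sense double-stranded RNA and activate an RNase. All 4 tested members had a difference below 0 from control, from -0.64 ± 0.28 for Oas2 to -0.08 ± 0.31 for Oas1a. In 0 of them did the early-life and control samples lie apart, and the family's differences from peripubertal ran from -0.38 to 0.40. Oasl2 had no value in E2, P1 and P2.

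**Figure D2:**
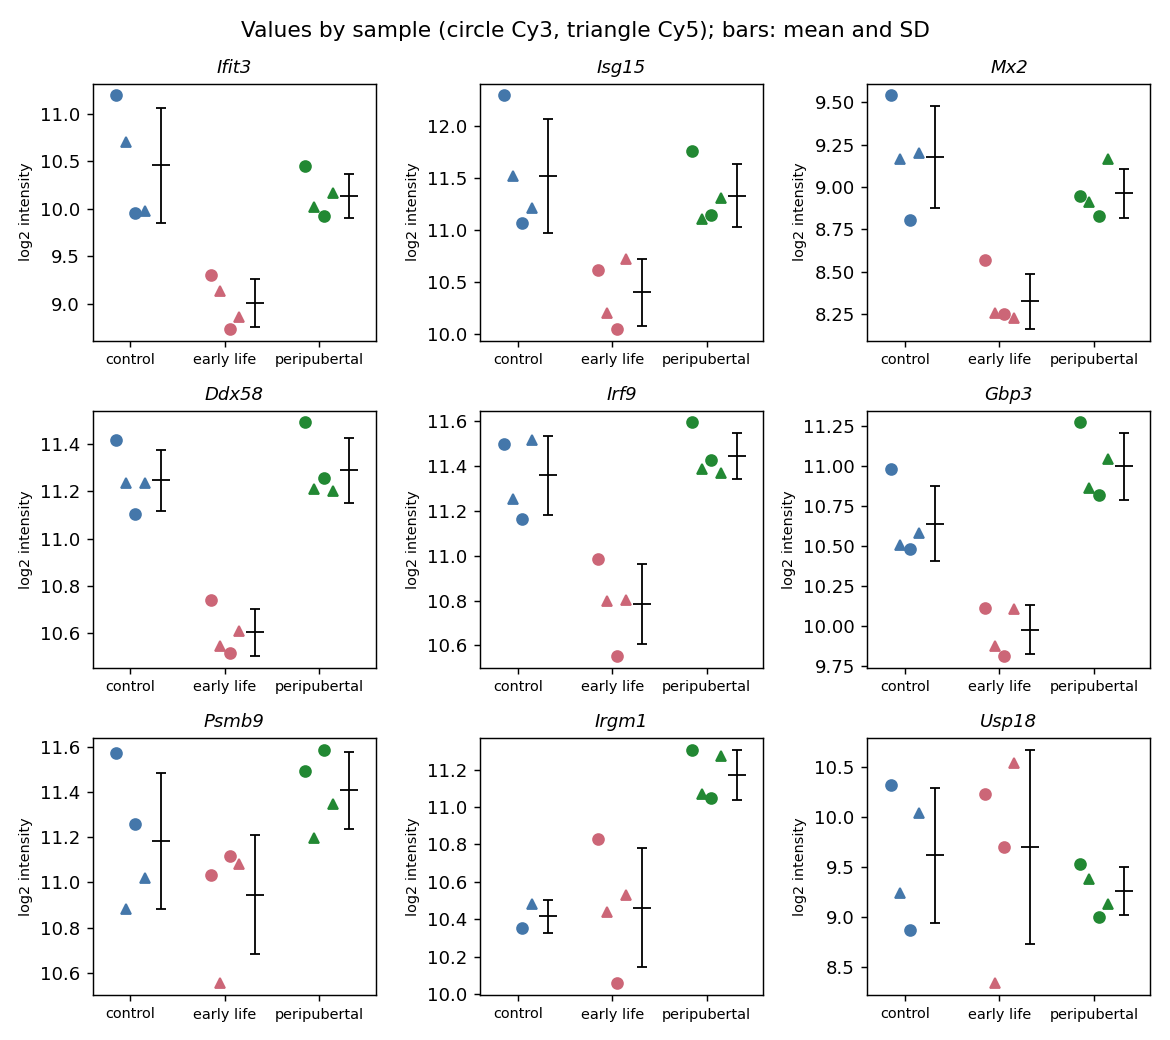
Log2 intensity of 9 genes in each sample, circles for Cy3 and triangles for Cy5, with bars giving the mean and SD of the values present. In the first 6 panels the early-life points lie under all others, in Psmb9 and Irgm1 the early-life points lie under the peripubertal points only, and in Usp18 they span the range of all samples; C1 and C2 have no value for Irgm1.

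Cytosolic sensors start the response to viral RNA. Ddx58, the RNA helicase RIG-I (chr4:40151893-40151952, mm9), had the smallest p of the members in both early-life comparisons. It measured 11.41, 11.23, 11.10 and 11.24 in controls, 10.74, 10.55, 10.52 and 10.61 in early-life samples, and 11.49, 11.21, 11.25 and 11.20 in peripubertal samples. All 4 early-life values lay at 10.74 or below and all 8 others at 11.10 or above. Ddx58 fell by 0.68 ± 0.11 against peripubertal (limma adjusted p = 0.0256), and its difference from control was -0.64 ± 0.11 (adjusted p = 0.0959). A dimmer Ddx58 probe gave -0.30 ± 0.11 from peripubertal and -0.31 ± 0.11 from control. Ifih1, the helicase MDA5, differed by -0.66 ± 0.18 from control and -0.59 ± 0.18 from peripubertal, with its early-life samples at 9.54, 9.35, 9.45 and 9.83 under a lowest other value of 9.90.

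The remaining sensors lay closer together. Zbp1, which senses Z-form nucleic acid, differed by -0.44 ± 0.20 from control and Eif2ak2, the kinase PKR, by -0.12 ± 0.17. Dhx58, the helicase LGP2, differed by 0.13 ± 0.25, and its highest sample was E4 at 8.54.

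Transcription factors carry the signal to the genes. Irf9 (chr14:56228806-56228865, mm9), the DNA-binding partner of Stat2, fell in early-life against peripubertal ovaries. It measured 11.50, 11.25, 11.16 and 11.52 in controls, 10.98, 10.80, 10.55 and 10.80 in early-life samples, and 11.59, 11.38, 11.42 and 11.37 in peripubertal samples. Every early-life sample lay under all others. The difference was -0.66 ± 0.14 from peripubertal (limma adjusted p = 0.0458) and -0.57 ± 0.14 from control (adjusted p = 0.203).

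Irf7, the factor that amplifies type I interferon production, differed by -0.64 ± 0.18 from control, where its groups did not overlap, and by -0.54 ± 0.18 from peripubertal, where they did. Irf1, a target of interferon gamma, lay closer, at -0.10 ± 0.11 from control, with no value in E4. Stat2 measured 9.55 and 9.92 in C3 and C4, 10.72, 10.79 and 9.27 in E1 to E3, and 10.64 and 11.02 in P3 and P4, with the other 5 samples set aside as outlier spots. Its peripubertal difference from control, 1.09 ± 0.53 (limma adjusted p = 0.523), is the highest of the members there and rests on 2 samples a group.

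The immunity GTPases and the antigen-processing genes respond strongly to interferon gamma. Each of these 7 genes had its highest mean in peripubertal ovaries, which 15 of the 34 members had. How many of all genes had this was not counted. Peripubertal minus control ran from 0.03 ± 0.27 for Igtp to 0.76 ± 0.24 for Irgm1, and none passed there. The control means of Irgm1 and Gbp2 rest on 2 samples each, and the peripubertal arrays had a slide of their own. Only 1 of the 7 passed the test, and only between early life and peripubertal. Gbp3 (chr3:142236032-142236091, mm9), a guanylate-binding protein that attacks vacuoles holding pathogens, fell in early-life against peripubertal ovaries. It measured 10.98, 10.51, 10.48 and 10.58 in controls, 10.12, 9.88, 9.81 and 10.11 in early-life samples, and 11.27, 10.86, 10.82 and 11.04 in peripubertal samples. Early-life samples lay under all others, whereas C1 lay among the peripubertal values. The difference was -1.02 ± 0.18 from peripubertal, 2.03 times lower (limma adjusted p = 0.0314), -0.66 ± 0.18 from control (adjusted p = 0.224), and 0.36 ± 0.18 between peripubertal and control (adjusted p = 0.486).

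Irgm1 (chr11:48679069-48679128, mm9), a regulator of this GTPase family, measured 10.35 and 10.48 in C3 and C4, 10.83, 10.44, 10.06 and 10.53 in early-life samples, and 11.30, 11.07, 11.05 and 11.27 in peripubertal samples, with no value in C1 and C2. The peripubertal samples lay above all others measured. Peripubertal minus control was 0.76 ± 0.24 (limma adjusted p = 0.294) and early life minus peripubertal -0.71 ± 0.20 (adjusted p = 0.0908). The other Irgm1 probe, which had all 12 values, gave 0.20 ± 0.21 and -0.31 ± 0.21. Igtp and Gbp2 differed by -0.45 ± 0.27 and -0.18 ± 0.30 between early life and peripubertal, Gbp2 without C3 and C4.

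Psmb8 and Psmb9 are subunits of the immunoproteasome, which cuts proteins into peptides, and Tap1 carries the peptides to MHC class I. Psmb9 (chr17:34319174-34319233, mm9) measured 11.57, 10.88, 11.26 and 11.02 in controls, 11.03, 10.55, 11.12 and 11.08 in early-life samples, and 11.49, 11.20, 11.59 and 11.35 in peripubertal samples. Early-life and peripubertal samples did not overlap, and controls spanned both. The difference from peripubertal was -0.46 ± 0.14 (limma adjusted p = 0.103), and peripubertal minus control was 0.22 ± 0.14 (adjusted p = 0.591).

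Tap1 (chr17:34330854-34330913, mm9) measured 8.66, 8.30, 8.56 and 8.40 in controls, 8.27, 8.06, 8.33 and 8.18 in early-life samples, and 8.64, 8.25, 8.88 and 8.57 in peripubertal samples. Its groups overlapped, with P2 below E1 and E3. The difference was -0.38 ± 0.10 from peripubertal (limma adjusted p = 0.0731) and -0.27 ± 0.10 from control. Psmb8 differed by -0.67 ± 0.25 from peripubertal, without overlap, and by -0.36 ± 0.25 from control.

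Other induced genes were mixed. Rsad2, the enzyme viperin, measured 8.63, 8.36, 8.30 and 8.29 in controls, 8.71, 8.40, 7.79 and 8.08 in early-life samples, and 8.03, 7.36, 8.13 and 8.20 in peripubertal samples. Every peripubertal sample lay under every control, with P2 the lowest of all, and the early-life samples spread over both. Peripubertal minus control was -0.46 ± 0.25 (limma adjusted p = 0.519).

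Ifi35 measured 10.97, 11.02 and 11.31 in C1, C3 and C4, 10.62, 10.42, 10.63 and 10.90 in early-life samples, and 10.77, 10.73, 10.97 and 10.77 in peripubertal samples. C2 had no value. Early-life samples lay under the 3 controls, and so did the peripubertal samples, with P3 almost level with C1. Early life minus control was -0.46 ± 0.15 (adjusted p = 0.278) and peripubertal minus control -0.29 ± 0.15 (limma adjusted p = 0.521). Rsad2 and Ifi35 are the 2 of 30 members whose peripubertal samples all lay under the controls, where 4.51% of all genes did; in 0 of 30 did they all lie above, beside 5.45%.

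Ifi44 and Xaf1 differed by -0.59 ± 0.25 and -0.56 ± 0.29 between early life and control, and Parp14 by 0.36 ± 0.43, with controls from 8.0 to 9.99. The membrane proteins Bst2, which tethers virions, and Ifitm3, which blocks viral entry, had no early-life group set apart from the controls. Ifitm3 measured 14.68, 13.71, 13.94 and 14.06 in controls, 15.12, 13.39, 14.28 and 15.48 in early-life samples, and 13.84, 13.84, 13.36 and 13.48 in peripubertal samples. As in Usp18, E1 and E4 were high and E2 was low, and the difference from control was 0.47 ± 0.51. Bst2 differed by -0.05 ± 0.27 from control, without values in E3 and P1.

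**Figure D3:**
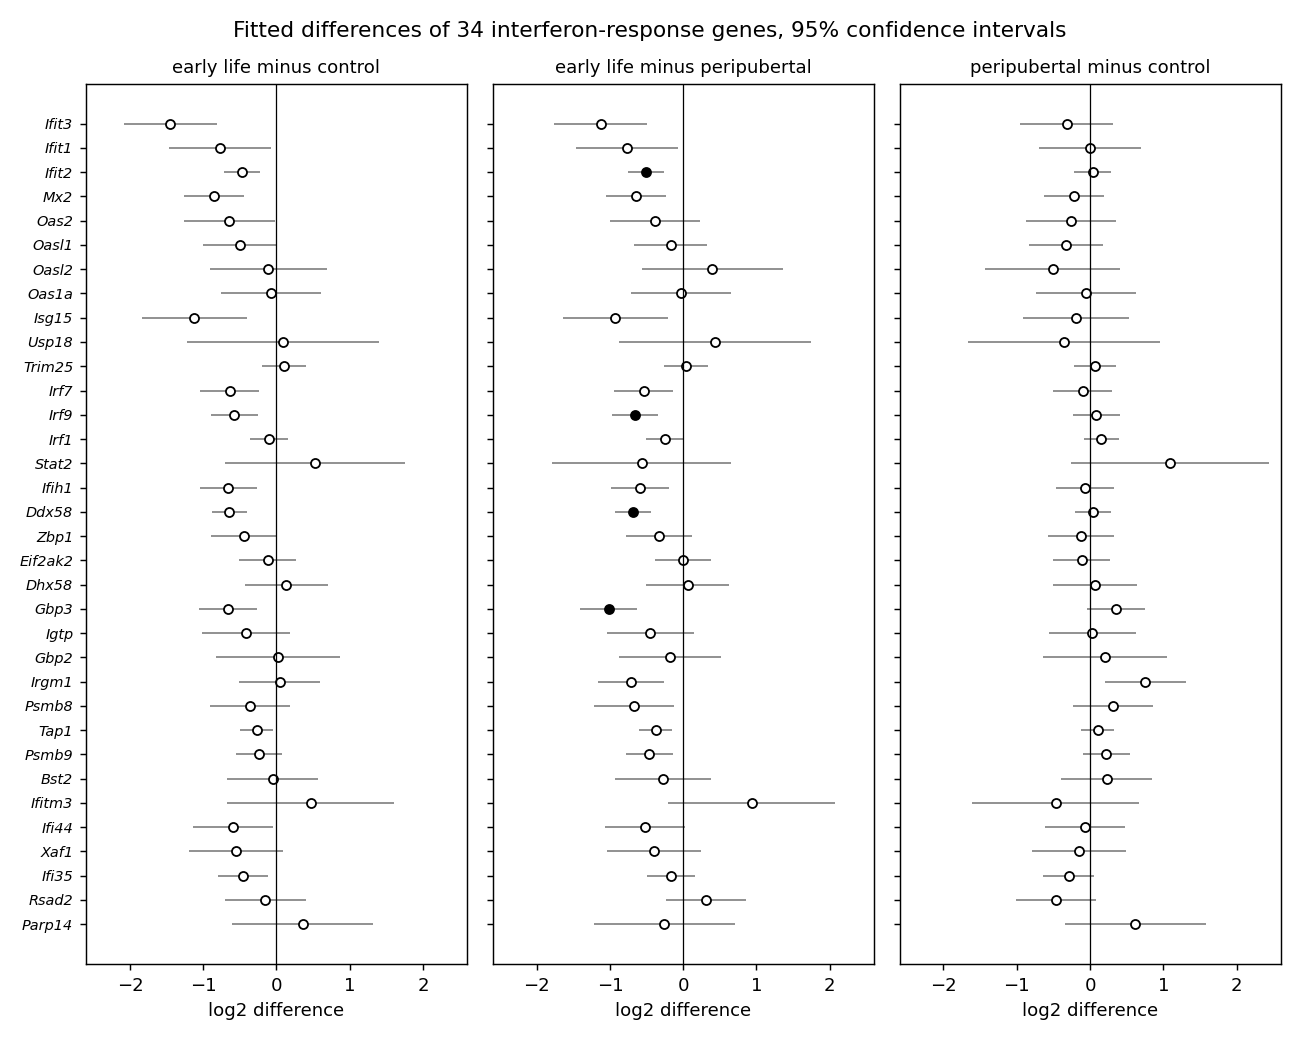
Fitted log2 difference of each of the 34 genes with its 95% confidence interval, in the order of the heat map; filled points passed the limma test over all genes. The 4 filled points, Ifit2, Irf9, Ddx58 and Gbp3, are all in the early life minus peripubertal panel and below 0, and in the peripubertal minus control panel 17 of 34 points lie below 0.

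The 4 calls were close to the threshold and depended on single samples. Without E1 0 of the 34 genes passed between early life and peripubertal, as without E3 or P1, while 4 passed without C4 or E2. Without P2 or P4 1 passed, and 2 did without C1, C2, C3, E4 or P3. Ddx58 passed in 9 of 12 such fits, and its adjusted p was 0.0892 without E1, 0.0978 without E3 and 0.0585 without P1. Gbp3 passed in 7 of 12, with 0.0941 without E1, 0.105 without E3, 0.0614 without P1, 0.0501 without P2 and 0.0530 without P4. Irf9 and Ifit2 passed in 2 of 12 each, without C4 and without E2, and reached 0.127 and 0.142 at most. The difference itself kept its sign in each of these fits, from -0.72 to -0.62 for Ddx58 and from -1.11 to -0.93 for Gbp3.

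Sample by sample, the genes were not evenly low. The mean deviation of the 34 genes from their own 12-sample means was 0.44, 0.05, -0.13 and 0.12 in C1 to C4, -0.07, -0.45, -0.41 and 0.00 in E1 to E4, and 0.26, 0.01, 0.02 and 0.17 in P1 to P4. The lowest of the 12 values of a gene fell in an early-life sample for 27 of 34 genes, 15 of them in E2 and 10 in E3, which lay on different arrays. The highest fell in C1 for 14 genes. These counts of lowest and highest samples were not made over all genes. C3, the lowest control, lay between the early-life samples E1 and E2, so the list mean overlapped between these groups. Without C1 the median difference of the members between early life and control was -0.24 in place of -0.39.

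Markers of other cell types moved with these samples. The macrophage list had 12 of 13 genes tested and Cd163 not above background in any sample. Its mean level ranged from 9.30 to 10.24 in control, 8.97 to 9.43 in early-life and 9.89 to 10.44 in peripubertal samples. The list's median difference between early life and the other groups was -0.73 from control and -1.05 from peripubertal. Against control 0 of 12 passed, where 0.0162% of all genes were called lower. Against peripubertal 5 of 12 passed, all lower, where 2.09% of all genes were called lower. Cd14 went the other way, at 0.64 ± 0.59 from control and 0.77 ± 0.59 from peripubertal, with its highest values in E4 and E1. E2 and E3 had the lowest macrophage deviation too, -0.76 and -0.55, and C1 the highest of the controls, 0.51. Other samples differed in order: C4 had the lowest macrophage deviation of the controls, -0.43, with a member deviation of 0.12, and P2 the highest of all, 0.71, with a member deviation of 0.01. Markers of oviduct epithelium, all 9 tested, ran the other way between early life and the other groups. Their mean levels were 8.77 to 10.95, 9.53 to 12.95 and 8.50 to 9.23 in the same order. Against peripubertal 1 of 9 passed, Wfdc2, higher by 4.50 ± 1.01 (limma adjusted p = 0.0479), where 0.544% of all genes were called higher. The oviduct markers were highest in E4 and E1, with deviations of 2.82 and 2.46, and in E2 the oviduct deviation was -0.60. Within the early-life group the members and these markers ranked the samples alike, E4, E1, E3 and E2 from high to low. Among controls both had C1 and C4 above C2 and C3. Ifitm3 was highest in E4 and E1, and Usp18 in E4, C1 and E1. E3, the other early-life sample with a low member mean, had an oviduct deviation of 1.54. Fat-cell markers, 5 of 6 tested, had mean levels of 8.72 to 10.70, 11.19 to 13.67 and 9.44 to 12.14. All mean levels here average the genes with a value in a sample, so samples with a missing gene average a different set. P2, without a value for the fat-cell gene Retn, had the level of 12.14, but its fat-cell deviation was 0.85 against 0.90 in P4. The part of these cell types in the members' differences was not tested.

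**Figure D4:**
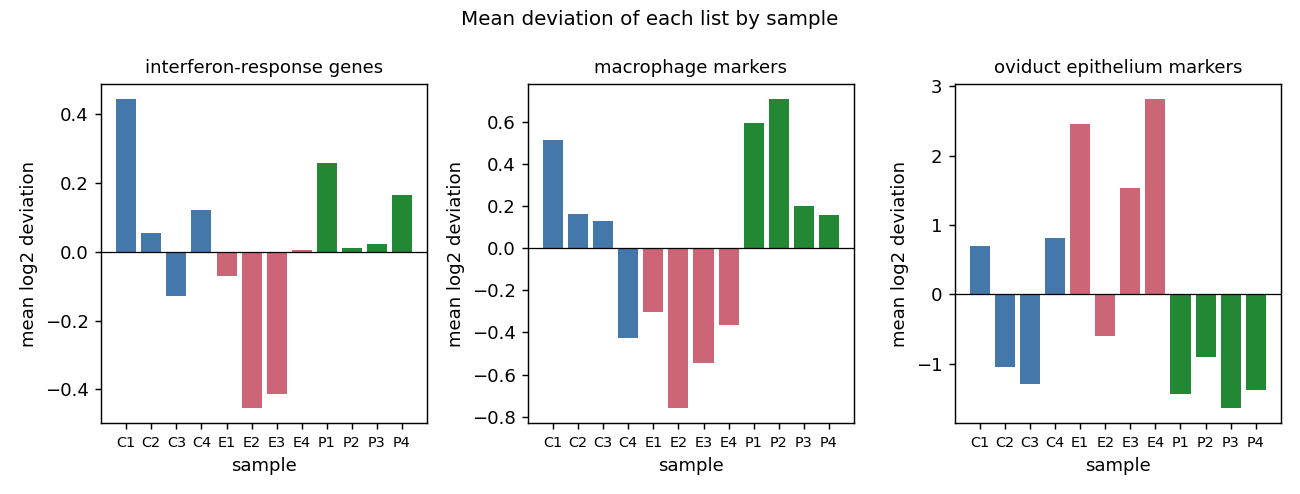
Mean log2 deviation from the 12-sample mean of each gene, by sample, for the 34 interferon-response genes, 12 macrophage markers and 9 oviduct epithelium markers; blue is control, red early life and green peripubertal. The interferon-response and macrophage bars are lowest in E2 and E3, and the oviduct bars are highest in E1 and E4.

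Dendritic-cell markers, 5 of 8 tested, had a median difference between early life and control of -0.06, with Bst2 in both lists. The medians were -0.11 for lymphocyte (7 of 12), -0.12 for granulocyte (4 of 7), -0.26 for endothelial (8 of 8) and 0.86 for the 4 red blood cell markers tested. The limma test passed 0 genes of these 5 lists, and 0.0162% of all genes lower and 0.00539% higher. At an unadjusted limma p under 0.05, 4 were lower and 1 higher, beside 9.48% and 4.44% of all genes. Between early life and peripubertal the medians were -0.28, -0.06, -0.47, -0.26 and 0.14 in the same order. Of all genes 2.09% were called lower in that comparison. There 1 lymphocyte-list gene fell, Ptprc, the leukocyte surface protein CD45 (-0.69 ± 0.12, limma adjusted p = 0.0290), and 1 endothelial gene, Emcn (-0.79 ± 0.17, adjusted p = 0.0440). Xcr1, Clec9a, Cd8a, Ncr1 and Mpo were above background in 0 samples.

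The rest of the pathway was examined in 73 further genes, of which 65 were tested. Between early life and control 47 of the 65 had a difference below 0, beside 54.4% of all genes, with a median of -0.15. The limma test passed 0 of them, and 0.0162% of all genes lower and 0.00539% higher. At an unadjusted limma p under 0.05, 14 were lower and 3 higher, beside 9.48% and 4.44% of all genes. Between early life and peripubertal 49 were below 0, beside 55% of all genes, with a median of -0.20. Of all genes 2.09% were called lower there and 0.544% higher, and of the 65 genes 3 passed, all lower. These were Trim30a, an interferon-induced TRIM protein (-0.88 ± 0.15, limma adjusted p = 0.0278), Gbp7, a guanylate-binding protein (-0.72 ± 0.15, adjusted p = 0.0424), and Ifi203, of the DNA-sensing HIN-200 family (-1.16 ± 0.26, adjusted p = 0.0468). Trim30a measured 8.80, 8.64, 8.24 and 8.31 in controls, 7.75, 7.76, 7.69 and 7.82 in early-life samples, and 8.78, 8.80, 8.39 and 8.57 in peripubertal samples, again with the early-life samples under all others. Between peripubertal and control 24 of 65 were below 0, beside 48.1% of all genes. There 0 passed, where 0.167% of all genes were called lower and 0.102% higher. At an unadjusted limma p under 0.05, 2 were lower and 5 higher, beside 4.87% and 6.5% of all genes.

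By step of the pathway, of 7 interferon genes Ifna4, Ifng and Ifnk were above background in 0 samples, Ifnb1 in 1 and Ifne in 2. Ifna1 and Ifna2 were tested and had a median of -0.08 between early life and control, with Ifna2 above background in at most 7 of 12 samples. Of the receptors, 3 of 4 were tested, with a median of -0.35. Of the 12 signalling genes 6 were below 0, beside 54.4% of all genes, with a median of -0.004. Of the 10 sensors and adaptors 6 were below 0, with a median of -0.08. The 38 further induced genes tested had a median of -0.28, with 31 below 0. Among genes with the smallest p, Trim21 and Phf11d differed by -0.42 ± 0.11 and -0.54 ± 0.14 between early life and control and Herc6 by -0.54 ± 0.13 between early life and peripubertal. Between peripubertal and control, the inhibitors Socs1 and Socs3 differed by -0.55 ± 0.20 and -0.35 ± 0.15, and the kinase Tbk1 by 0.41 ± 0.13. Ciita, the activator of MHC class II genes, differed there by 0.51 ± 0.17 and was above background in at most 6 of 12 samples. None of these 7 passed the test in the comparison given.

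As a description over the 12 samples, the genes most like the mean of the members were ranked by Pearson correlation among 14886 genes. Values were adjusted for dye before this ranking. Outside the list Gm9706 came first (0.91), then Rela, Entpd5, Cybc1, Cd3e, Hspa8, Gm10765, Orai3 and Mpc1, down to Parp9 (0.86). The 12 samples share arrays, dyes and groups. Among the members with all 12 values, Xaf1 (0.96) and Isg15 (0.94) were most like this mean, of which they are a part, and Ifitm3 (0.12) and Dhx58 (0.10) least.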

How the data were processed

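The members and all gene lists were chosen with earlier results of these data known. Per the labels' protocols, ovary RNA was amplified with incorporation of either dye; per the file headers, Feature Extraction of Agilent, version 11.0.1.1, read the scans, and probes are placed on mm9, for which no annotation was used here, so exon and UTR are not given. The deposited scanner files hold mean signal and median background as intensity, without normalization, and a processed signal. The value table, also deposited, is on a log2 scale with each column's median at 0; how the authors made it is not given in the sources used here, and it served as an alternative for early life and control.

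Background was removed with normexp (offset 50), then loess within and Aquantile between arrays, in R 4.3.3 with limma 3.58.1, statmod 1.5.0 and the package data.table (1.17.8). Outlier spots were left out (2.82% of values missing). Probes above background in at least 4 samples with at least 2 values a group were kept (23791), and the brightest stood for a gene. Names came through accession (27234 probes), symbol (3576), synonym (565) or the file (8054). The limma model had group and dye, with the array as random block (correlation 0.288). In simulated early life against control data, genes were drawn independently of each other, with 67 changed 1.5-fold, 67 2-fold and 66 4-fold. Of these changes 22.4%, 67.2% and 89.4% were recovered in that order, with 8 false among 127 calls. The real comparison called 4 genes, so these rates may overstate what could be recovered in it.

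Given sample by sample are the 6 members with the smallest p in each comparison, and Isg15, Usp18 and Ifitm3 chosen after their values were seen. Pathway genes are named if they passed or were among the 4 smallest p of a comparison, or to account for interferon genes. Marker lists cover macrophage, dendritic cell, lymphocyte, granulocyte, endothelium, oviduct epithelium, adipocyte, red blood cell and ovary cells. Alternatives were other background, scaling, filter, outlier, probe, block, dye, replicate and variance choices, each sample left out, and, added after the data were examined, control and early-life arrays exchanged.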

Additional observations from a re-analysis of the deposited data

Results flagged for a closer look

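Of 43 sample groups with 4 values, those of the members given sample by sample and of the mean over the members, 3 held a sample far from the other 3, by Dixon's criterion (the gap to the nearest sample over the group's range); chance flags about 1 in 20 groups. Mx2 measured 8.57 in E1 and 8.23 to 8.25 in the other early-life samples. Ifi35 measured 10.97 in P3 and 10.73 to 10.77 in the other peripubertal samples. Psmb9 measured 10.55 in E2 and 11.03 to 11.12 in the other early-life samples.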

How the results depend on the processing

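Between early life and control 4 genes of all tested passed (adjusted p = 0.0496 by limma), none a member. Other settings gave 0 (quantile scaling, no filter, all 12 samples above background, mean of probes, replicate block), 1 (outlier spots kept), 16 (value table), 21 (processed signals), 35 (no dye term) and 113 (no array block), and 0 to 88 with 1 sample left out. Members passing numbered 1 with processed signals or no dye term and 3 without the array block, in place of 0.

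Between peripubertal and control 50 genes passed, and 14 (above background in all samples, or replicate block), 19 (mean of probes), 21 (no filter), 26 (outlier spots kept), 80 (no dye term) and 158 (no array block) elsewhere, or 0 to 29 with 1 sample left out. Between early life and peripubertal 489 genes passed, and 244 (processed signals), 305 (mean of probes), 738 (no dye term) and 2112 (no array block) elsewhere, or 2 to 1572. Members passing there were 4, and 2 with processed signals, no filter or outlier spots kept, 1 with the mean of probes, 11 without the array block and 0 to 4 with 1 sample left out.

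Same-numbered samples did not pair in every case (correlations of -0.35 to 0.54 over 12 pairs). The 3 pairs over 0.1 were all of early life with control, replicates 1 (0.22), 2 (0.54) and 4 (0.38), with 0.07 in replicate 3, and there the replicate block gave 0 members passing, as without it. The replicate block gave 8 members passing between early life and peripubertal in place of 4.

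In the value table, early life minus control turned to 0.75 for Ddx58, 1.58 for Ifit3, 0.94 for Mx2, 0.54 for Ifit2, 0.64 for Irf9 and 0.72 for Gbp3, with a member median of 0.44. With the arrays exchanged these were 0.64, 1.45, 0.85, 0.47, 0.57 and 0.66, with a median of 0.39. Then 489 genes and 4 members passed between peripubertal and control, with a median of 0.39, and 50 and 0 between early life and peripubertal, with a median of 0.0246. Ifi35 turned to 0.17 between peripubertal and control, and Ifit3 to 0.32 between early life and peripubertal. With the arrays exchanged, these changes of sign and those of the genes above come from exchanging the group names. In the value table the signs go with its control and early-life columns, which matched the arrays of the other group. The cause of shifts under other settings was not tested.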
